A study of Arabidopsis thaliana with 4 samples.

Results

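Genes of flavonoid synthesis were followed in whole seedlings of wild-type Arabidopsis (ecotype Col-0), sampled at 2 and at 6 days post germination (dpg), with 2 libraries at each age. They were 10 genes named by locus, all 10 of which were found among the 26784 genes of the count table: the MYB genes PAP1, PAP2, MYB11, MYB12 and MYBL2, the bHLH genes TT8 and EGL3, and the enzyme genes TT5, FLS1 and LDOX. No line carried a transgene or a mutation. All seedlings were stratified in the cold for 2 days and then grown on reduced-strength Murashige and Skoog medium with 0.5% sucrose at 22 °C with 12 h of light, and the labels give no hour of harvest. RNA came from total seedling tissue, so fewer cells of a type and less RNA per cell cannot be told apart. Separate cultures are not stated for replicates, so each p-value reflects only how far the 4 libraries spread, and that spread may be technical. The edgeR test also borrows this spread across genes, so its p-values do not rest on a gene's own 4 values alone.

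Flavonoids are made from phenylalanine by way of chalcone, which chalcone isomerase (TT5) closes into the flavanone ring. Flavonol synthase (FLS1) draws dihydroflavonols into flavonols, which screen ultraviolet light, and anthocyanidin synthase (LDOX) acts late on the branch that leads to the red anthocyanins of stressed or young tissue. The flavonol branch is switched on by MYB11, MYB12 and MYB111 without a bHLH partner. The late branch needs a complex of an R2R3-MYB such as PAP1 or PAP2, a bHLH such as TT8, EGL3 or GL3, and the WD40 protein TTG1, and MYBL2 is a small MYB that binds the bHLH partner and represses the complex.

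Levels are given in CPM (reads of a gene per 1000000 reads of the scaled library) and differences as log2 fold changes of 6 over 2 dpg with the standard error (SE) from edgeR. A gene was called at a Benjamini-Hochberg adjusted p under 0.05 over all 16160 genes tested. Reads on the rows of the table totalled 14845619 to 21217252 per library, 79.9 to 81.0% of the library totals recovered from the authors' FPKM. A count of 3 corresponded to 0.113 to 0.164 CPM. Of the 16160 genes tested 56.6% were called, 28.3% higher and 28.4% lower at 6 dpg, and in 80.6% the libraries of the ages did not overlap. Scaling on 10 ribosomal protein genes shifted the median difference over all genes from -0.00111 to 0.39 (log2) and the calls from 4568 higher and 4585 lower to 6111 and 1833. The seedling label was checked on marker genes. Those of leaf (RBCS1A, LHCB1.2 and CHLI1) summed to 15009 CPM or more in every library, those of root (CASP1, CASP2 and RHD6) to 24.7 CPM or more and those of epidermis (ATML1 and PDF2) to 151 CPM or more. The flower and embryo genes AG, AP3 and LEC1 together reached at most 0.358 CPM.

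Between 2 and 6 dpg the MYB activators PAP1, MYB11 and MYB12 fell together with the enzyme genes TT5, FLS1 and LDOX, while the repressor gene MYBL2 rose 23.5-fold. The bHLH genes TT8 and EGL3 had the smallest estimated changes of those tested. Of the 10 genes, 9 passed the filter on low counts and 7 of these were called, 1 higher and 6 lower, against 28.3% higher and 28.4% lower among all genes tested. PAP1, MYB11 and LDOX passed that filter through the 2 dpg libraries alone, so their entry into the test was tied to the age at which they were high. PAP2 did not pass.

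**Figure D1:**
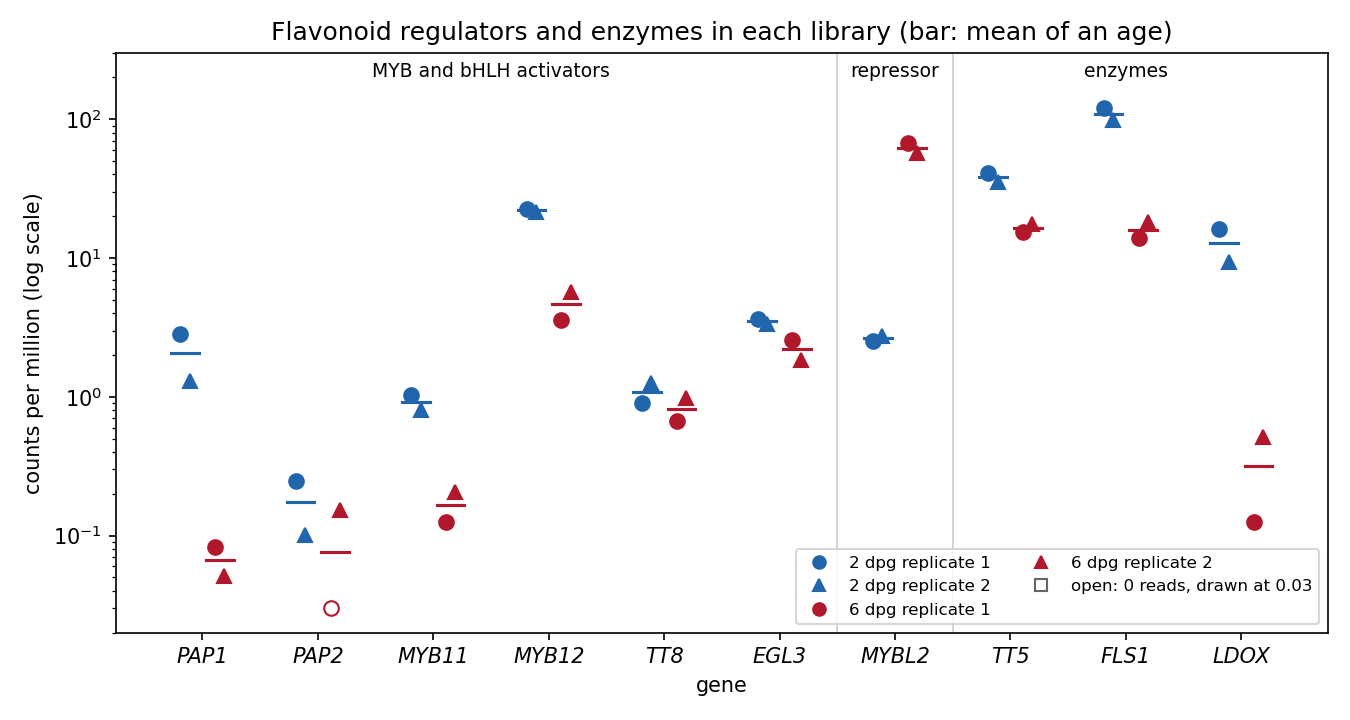
CPM (log axis) of each gene in each of the 4 libraries, with a bar at the mean of an age. MYBL2 lies at 57.4 CPM or more in the 6 dpg libraries and at 2.76 CPM or less in the 2 dpg libraries, the 3 enzyme genes lie lower at 6 dpg, and the TT8 libraries overlap between ages.

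The promoter windows of 4 genes that were lower at 6 dpg, or in the case of PAP2 too scarce to test, show which recognition letters of light and MYB factors lie close to their starts. Each is the 250 bases before the start annotated by RefSeq on TAIR10.1, read 5′ to 3′ on the gene's strand. Capitals mark the ACGT core, bound by bZIP and many bHLH factors, and the MYB-type AC elements, searched as ACCTAAC or ACCTACC and also as ACCAAAC or ACCAACC. Both motifs were searched on both strands, and no AC element overlapped an ACGT core in these windows.
FLS1, chr5:2803583-2803832, plus strand: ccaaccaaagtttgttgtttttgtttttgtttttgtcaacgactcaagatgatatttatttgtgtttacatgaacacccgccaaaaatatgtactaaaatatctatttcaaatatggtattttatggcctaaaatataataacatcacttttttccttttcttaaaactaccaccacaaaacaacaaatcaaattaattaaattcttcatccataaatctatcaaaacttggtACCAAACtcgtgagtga
MYB12, chr2:19476076-19476325, plus strand: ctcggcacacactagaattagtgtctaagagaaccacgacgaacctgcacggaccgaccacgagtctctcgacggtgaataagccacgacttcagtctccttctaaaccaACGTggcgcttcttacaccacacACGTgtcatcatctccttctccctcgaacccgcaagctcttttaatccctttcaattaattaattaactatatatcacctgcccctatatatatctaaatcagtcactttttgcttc
PAP1, chr1:21235293-21235542, minus strand: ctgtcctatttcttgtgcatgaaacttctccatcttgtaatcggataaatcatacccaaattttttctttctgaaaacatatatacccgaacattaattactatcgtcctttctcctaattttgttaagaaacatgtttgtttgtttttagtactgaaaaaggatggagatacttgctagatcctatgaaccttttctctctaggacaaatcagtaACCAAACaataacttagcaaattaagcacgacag
PAP2, chr1:24763691-24763940, plus strand: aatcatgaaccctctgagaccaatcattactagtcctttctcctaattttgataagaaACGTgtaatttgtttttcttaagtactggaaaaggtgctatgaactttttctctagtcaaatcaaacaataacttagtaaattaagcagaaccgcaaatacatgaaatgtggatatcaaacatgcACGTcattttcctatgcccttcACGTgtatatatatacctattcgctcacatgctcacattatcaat

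In the FLS1 window an AC element, ACCAAAC, begins 17 bases before the start, and in the PAP1 window the same letters begin 34 bases before it. The MYB12 window holds 2 ACGT cores, of which the nearer lies within the G-box CACGTG that begins 118 bases upstream. PAP2 has 3 cores, 1 of them in a G-box that begins 46 bases upstream. Although PAP1 and PAP2 lie far apart on chromosome 1, their windows align over 126 bases with 88.9% identity, and the AC element of PAP1 is not found in the window of PAP2. Among the 10 genes, 5 windows held an ACGT core, 3 an AC element and 2 a G-box. Of the 27431 such windows of all nuclear coding genes, 44.1% held an ACGT core, 13.7% an AC element and 6.49% a G-box. The windows of TT5, LDOX and MYBL2 held none of these, which says only that the letters are not in these 250 bases. The E-box CANNTG, also searched, was in 5 of the 10 windows, TT5 among them, and in 55.3% of all such windows. The MYBL2 window overlaps another coding gene, AT1G71040.

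PAP1 (AT1G56650, chromosome 1, 21233595 to 21235137, minus strand), the main seedling activator of anthocyanin genes, stood at 2.83 and 1.31 CPM in the 2 dpg libraries and at 0.0832 and 0.0512 CPM in the 6 dpg libraries. Its reads numbered 69 and 26 at 2 dpg and 2 and 1 at 6 dpg, so the groups were far apart but the later level rested on 3 reads. The summed reads were 31.1-fold lower at 6 dpg, with a 95% exact interval of 10.3 to 154 that covers counting error only. In the edgeR fit the log2 fold change was -4.82 ± 0.66 (SE, adjusted p = 0.000367). Without 2 dpg replicate 1, the library with the most PAP1 reads, it was -4.13 (adjusted p = 0.0021).

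PAP2 (AT1G66390, chromosome 1, 24763957 to 24765541, plus strand), the close relative of PAP1, had 6 and 2 reads at 2 dpg and 0 and 3 reads at 6 dpg, too few to test. The libraries of the ages overlapped, and the ratio of 2 over 6 dpg was 2.62 with a 95% exact interval of 0.629 to 15.3, so that no difference was detectable at this depth. PAP2 ends a row of like genes. MYB113 lies 2808 bases before MYB114, and MYB114 lies 5466 bases before PAP2. MYB113 and MYB114 had no read at 2 dpg, and at 6 dpg they had 2 and 3 reads over both libraries. The annotated coding sequence of MYB114 has 420 bases, against 750 for PAP2 and 741 for MYB113. The coding sequences of PAP2 and MYB114 are 91.2% identical over 420 aligned bases and share an unbroken run of 67 bases, and those of PAP1 and PAP2 are 84.3% identical with a shared run of 42 bases. Reads from such stretches can be split among the copies or lost.

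The flavonol regulators both fell. MYB12 (AT2G47460, chromosome 2, 19476337 to 19479478, plus strand), which activates the early and flavonol genes chiefly in roots, was measured at 22.7 and 21.5 CPM at 2 dpg and at 3.58 and 5.73 CPM at 6 dpg. Its 2 dpg libraries lay close together and well above both later ones, with a log2 fold change of -2.26 ± 0.20 (SE, edgeR adjusted p = 4.37e-05). MYB11 (AT3G62610, chromosome 3, 23154758 to 23156585, plus strand), a paralogue with 76.7% identity to MYB12 in the coding sequence, had 25 and 16 reads at 2 dpg and 3 and 4 reads at 6 dpg. These counts correspond to 1.02 and 0.804 CPM against 0.125 and 0.205 CPM, a log2 fold change of -2.47 ± 0.51 (SE, edgeR adjusted p = 0.00319). Per length, MYB12 stood 19.0- to 24.6-fold above MYB11 in the 4 libraries, and that ratio was 21.0 ± 2.78 at 2 dpg and 24.3 ± 0.404 at 6 dpg (SD, n = 2, exact two-sided permutation p = 0.333, the smallest that 2 against 2 allows). MYB111, the remaining activator of this group, was not analysed here.

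The bHLH genes had the smallest estimated changes of the 9 tested, though their 95% intervals overlapped that of TT5 (-1.52 to -0.90). TT8 (AT4G09820, chromosome 4, 6182023 to 6186493, plus strand) had 0.901 and 1.26 CPM at 2 dpg and 0.666 and 0.972 CPM at 6 dpg. Its libraries overlapped between ages, and the log2 fold change of -0.40 had a 95% interval of -1.27 to 0.47 (edgeR adjusted p = 0.401). EGL3 (AT1G63650, chromosome 1, 23599413 to 23602902, plus strand), which also serves in trichome and root epidermis patterning, had 3.65 and 3.37 CPM at 2 dpg and 2.58 and 1.84 CPM at 6 dpg. Both later libraries lay below both earlier ones. In 80.6% of all genes tested the ages were likewise apart, in one direction or the other. Its log2 fold change was -0.65 with a 95% interval of -1.22 to -0.09, and its edgeR adjusted p of 0.05005 lay on the threshold. EGL3 crossed it in 6 of 12 alternatives, with an edgeR adjusted p between 0.0241 and 0.0494. It did not cross it with the DESeq2 Wald test (adjusted p = 0.163) or with scaling on ribosomal protein genes (edgeR adjusted p = 0.575). Without 2 dpg replicate 1 or 2 its log2 fold change was -0.59 or -0.72. Without 6 dpg replicate 1 or 2 it was -0.93 or -0.44. The authors' deposited table gives adjusted p-values of 0.185 for EGL3 and 0.806 for TT8.

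MYBL2 (AT1G71030, chromosome 1, 26795123 to 26796364, minus strand) went the other way. It had 62 and 55 reads at 2 dpg and 1612 and 1121 reads at 6 dpg, or 2.54 and 2.76 CPM against 67.1 and 57.4 CPM. The replicates lay close together at each age and the ages were widely apart. The log2 fold change was 4.55 ± 0.16 (SE, edgeR adjusted p = 2.29e-06), with the third smallest p of the 16160 genes tested and it was number 54 by size among the rises. In the 12 alternatives it ranged from 4.44 to 4.95.

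Counted per length in the authors' FPKM, the makeup of the 7 regulators was inverted between the ages. MYBL2 made up 10.5 and 12.7% of their summed FPKM in the 2 dpg libraries and 94.1 and 91.0% in the 6 dpg libraries. The 6 activators together fell from 20.2 and 18.6 FPKM to 4.48 and 6.10 FPKM. MYB12, of the flavonol branch that needs no bHLH partner, was the most abundant activator at both ages (mean 14.3 FPKM at 2 dpg and 3.40 at 6 dpg). The share is therefore not a balance within the complex that MYBL2 represses.

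**Figure D2:**
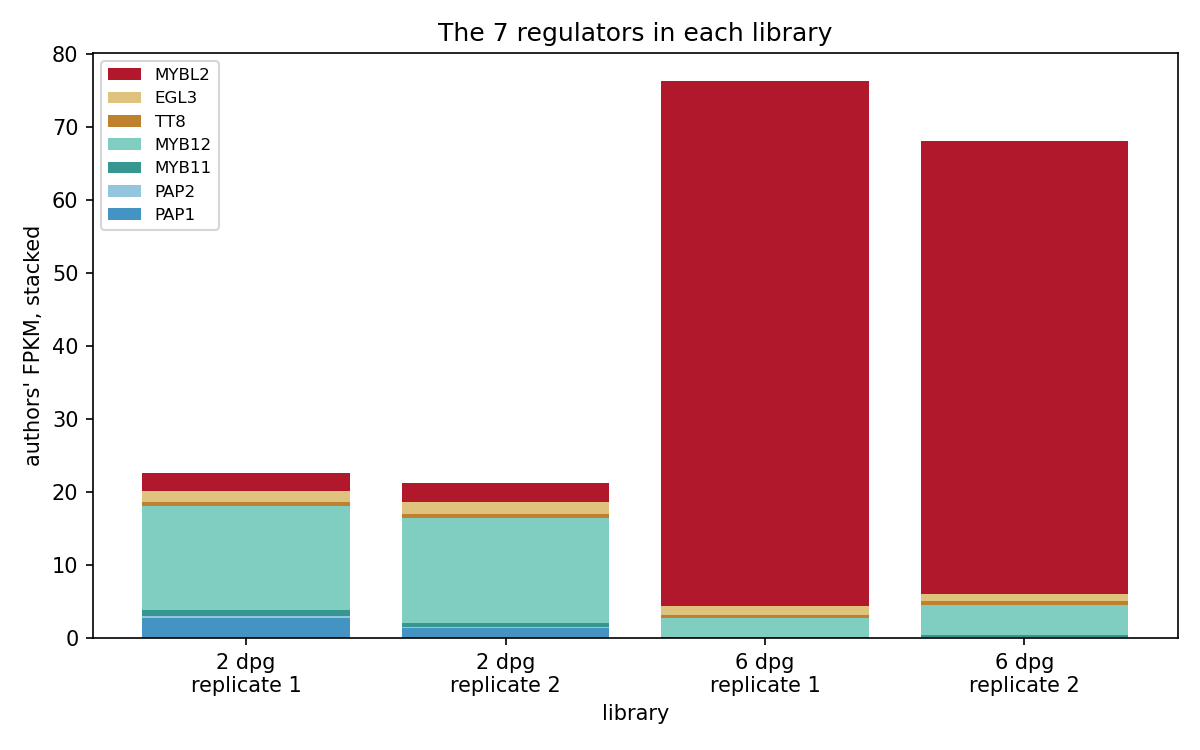
The authors' FPKM of the 7 regulators, stacked for each of the 4 libraries. MYB12 fills most of the 2 dpg bars, with the 6 activators at 20.2 and 18.6 FPKM, whereas MYBL2 takes 94.1 and 91.0% of the 6 dpg bars.

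All 3 enzyme genes fell, to different degrees. TT5 (AT3G55120, chromosome 3, 20430114 to 20431470, minus strand), which serves every branch of the pathway, was measured at 41.0 and 35.3 CPM at 2 dpg and at 15.4 and 17.7 CPM at 6 dpg. The groups did not overlap, and the log2 fold change was -1.21 ± 0.14 (SE, edgeR adjusted p = 0.00013). FLS1 (AT5G08640, chromosome 5, 2803957 to 2805606, plus strand) had 121 and 98.0 CPM at 2 dpg and 13.9 and 18.1 CPM at 6 dpg. Both early libraries were more than 5 times either late one, at a log2 fold change of -2.78 ± 0.17 (SE, edgeR adjusted p = 9.19e-06). LDOX (AT4G22880, chromosome 4, 12004768 to 12006209, minus strand) had 397 and 186 reads at 2 dpg and 3 and 10 reads at 6 dpg, or 16.3 and 9.35 CPM against 0.125 and 0.512 CPM. Its replicates differed widely at both ages but the ages lay far apart. Its log2 fold change of -5.40 ± 0.46 (SE, edgeR adjusted p = 3.67e-05) was the 18th largest fall of all genes tested and became -4.63 without 6 dpg replicate 1 and -6.62 without 6 dpg replicate 2.

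The balance between the enzyme genes changed as well. Per length, FLS1 stood 2.06 and 1.94 times as high as TT5 in the 2 dpg libraries and 0.630 and 0.718 times as high in the 6 dpg libraries. FLS1 exceeded LDOX 7.0- and 9.88-fold at 2 dpg and 105- and 33.3-fold at 6 dpg, the latter 2 values resting on 3 and 10 LDOX reads. In each of these ratios the libraries of the ages did not overlap, and the exact two-sided permutation p was 0.333, the smallest that 2 against 2 allows.

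In order of FPKM, FLS1 led at 2 dpg with 77.4 ± 8.64, ahead of TT5 with 38.6 ± 2.75, MYB12 with 14.3 ± 0.0296 and LDOX with 9.57 ± 3.34 (SD, n = 2). MYBL2, PAP1 and EGL3 followed at 2.54 ± 0.242, 2.11 ± 1.03 and 1.56 ± 0.0318 FPKM, with PAP1 overlapping both of its neighbours. MYB11 and TT8 overlapped each other at 0.689 ± 0.0929 and 0.557 ± 0.149 FPKM, and PAP2 was last at 0.164 ± 0.0923 FPKM. At 6 dpg MYBL2 led with 67.0 ± 6.97 FPKM, ahead of TT5 with 18.9 ± 1.91, FLS1 with 12.8 ± 2.46 and MYB12 with 3.40 ± 1.13 FPKM. EGL3 and TT8 came next at 1.11 ± 0.254 and 0.475 ± 0.128 FPKM, with TT8 overlapping LDOX below it. The last 4 were LDOX, MYB11, PAP2 and PAP1, at 0.271 ± 0.234 to 0.0779 ± 0.0258 FPKM, each overlapping its neighbour in the order.

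**Figure D3:**
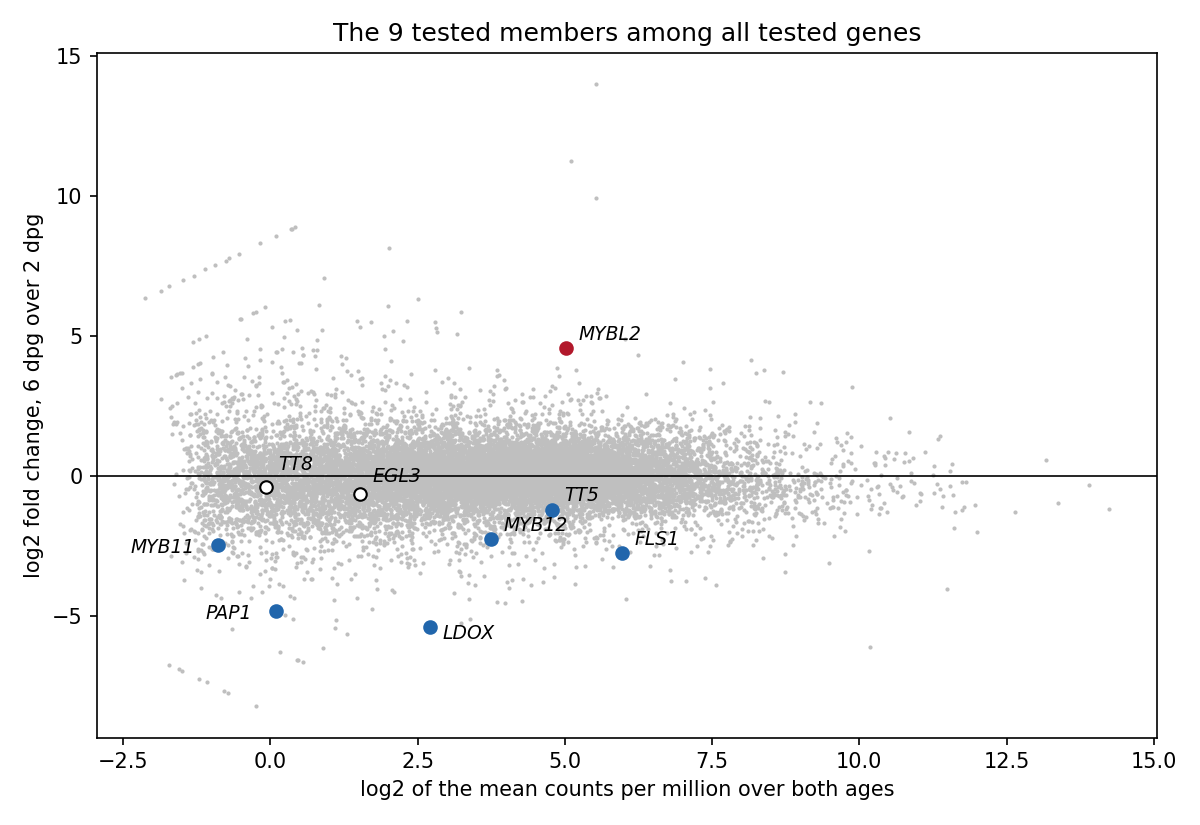
Log2 fold change of 6 over 2 dpg against the log2 of the mean CPM over both ages for the 16160 genes tested (grey) and the 9 tested flavonoid genes. Filled points were called, MYBL2 higher (4.55) and PAP1, MYB11, MYB12, TT5, FLS1 and LDOX lower, and the open points TT8 and EGL3 were not.

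The rest of the pathway was read from lists of 57 other genes, of which 42 were in the table and 33 were tested, with 7 called higher, 14 lower and 12 not called, against 28.3% higher, 28.4% lower and 56.6% in either direction among all genes tested. Their median log2 fold change was -0.38, beside -0.00111 over all genes tested. Genes for CHS, DFR, UGT78D2, UGT79B1, TT19, TTG1, GL3, TT2 and HY5 were among those not analysed here. At the entry to the pathway, 5 of 8 genes fell and 1 rose. The largest fall was that of 4CL3, a 4-coumarate:CoA ligase tied to flavonoid synthesis, from 35.8 and 30.1 CPM to 2.95 and 4.61 CPM (log2 fold change -3.14 ± 0.20 SE, edgeR adjusted p = 1.08e-05). 4CL2 and PAL1, a ligase gene and a phenylalanine ammonia-lyase gene of general phenylpropanoid supply, changed by -1.20 and -1.63 on the log2 scale. PAL2, a second lyase gene, rose from 206 and 186 CPM to 351 and 411 CPM, a log2 fold change of 0.96 ± 0.13 (SE, edgeR adjusted p = 0.000339).

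Among the other core enzymes, both tested genes fell. CHIL, a chalcone isomerase-like protein without catalytic activity that aids chalcone synthase, fell from 101 and 79.1 CPM to 17.1 and 19.2 CPM, with a log2 fold change of -2.32 beside -1.21 for the catalytic isomerase gene TT5. TT7, the flavonoid 3′-hydroxylase that adds the hydroxyl group of quercetin and cyanidin, had a log2 fold change of -1.23 ± 0.18 (SE, edgeR adjusted p = 0.000541). F3H, the flavanone 3-hydroxylase gene, had 0 reads in all 4 libraries. AT3G51238 on the opposite strand overlaps 94.5% of its span and also had 0 reads, so a level of F3H cannot be read from this table.

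Of 9 tested genes for the decoration of flavonoids, 6 fell and 1 rose. AT5MAT, the malonyltransferase of anthocyanins, went from 68 and 53 reads to 1 and 0 reads, 119-fold lower with a 95% exact interval of 21.0 to 4738. Its log2 fold change was -6.58 (edgeR adjusted p = 4.69e-05), and -8.86 or -5.85 without 6 dpg replicate 1 or 2. AT5MAT passed the filter on low counts through 2 dpg alone, so its entry into the test was tied to the age at which it was high. SCPL10, a serine carboxypeptidase-like gene, fell from 12.0 and 9.30 CPM to 0.915 and 1.02 CPM. UGT89C1, the flavonol 7-O-rhamnosyltransferase gene, fell from 32.6 and 27.4 CPM to 4.41 and 4.50 CPM, and 57.8% of its span is overlapped by a locus without reads on the other strand. AT3AT2, annotated as an anthocyanin acyltransferase gene, rose by 0.79 ± 0.18 (SE, edgeR adjusted p = 0.00489) on the log2 scale. UGT73C6, a flavonol glucosyltransferase gene overlapped over 90.2% of its span by AT2G36792, had 0 reads in all libraries, as had that locus.

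Of 10 other tested genes that hold the pathway back, 3 rose, 1 fell and 6 were not called, a share of rises near the 28.3% of all genes tested. LBD38 and LBD39, LOB-domain repressors of anthocyanin genes that respond to nitrogen, rose by 0.57 ± 0.12 and 0.89 ± 0.12 (SE, edgeR adjusted p = 0.00299 and 0.000295) on the log2 scale. The F-box/kelch-repeat gene AT1G23390 rose by 0.43 ± 0.12 (SE, edgeR adjusted p = 0.0124) and was not called without 6 dpg replicate 1 (adjusted p = 0.106) or 6 dpg replicate 2 (0.103). ETC1, a small R3-MYB that competes for the bHLH partner as MYBL2 does, went from 95 and 75 reads to 11 and 6 reads (log2 fold change -3.28 ± 0.32 SE, edgeR adjusted p = 6.46e-05). ETC1, too, passed the filter through 2 dpg alone, the age at which it was high. Among activators outside the named genes only HYH, a bZIP relative of HY5, was testable, and it rose by 0.48 ± 0.14 (SE, edgeR adjusted p = 0.0178), a call lost without 6 dpg replicate 1 (0.154). GL2, a homeobox gene of epidermal fate downstream of EGL3, rose by 0.67 ± 0.16 (SE, edgeR adjusted p = 0.00685), and was not called without 6 dpg replicate 2 (0.0509) or with length-adjusted offsets (0.0804).

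**Figure D4:**
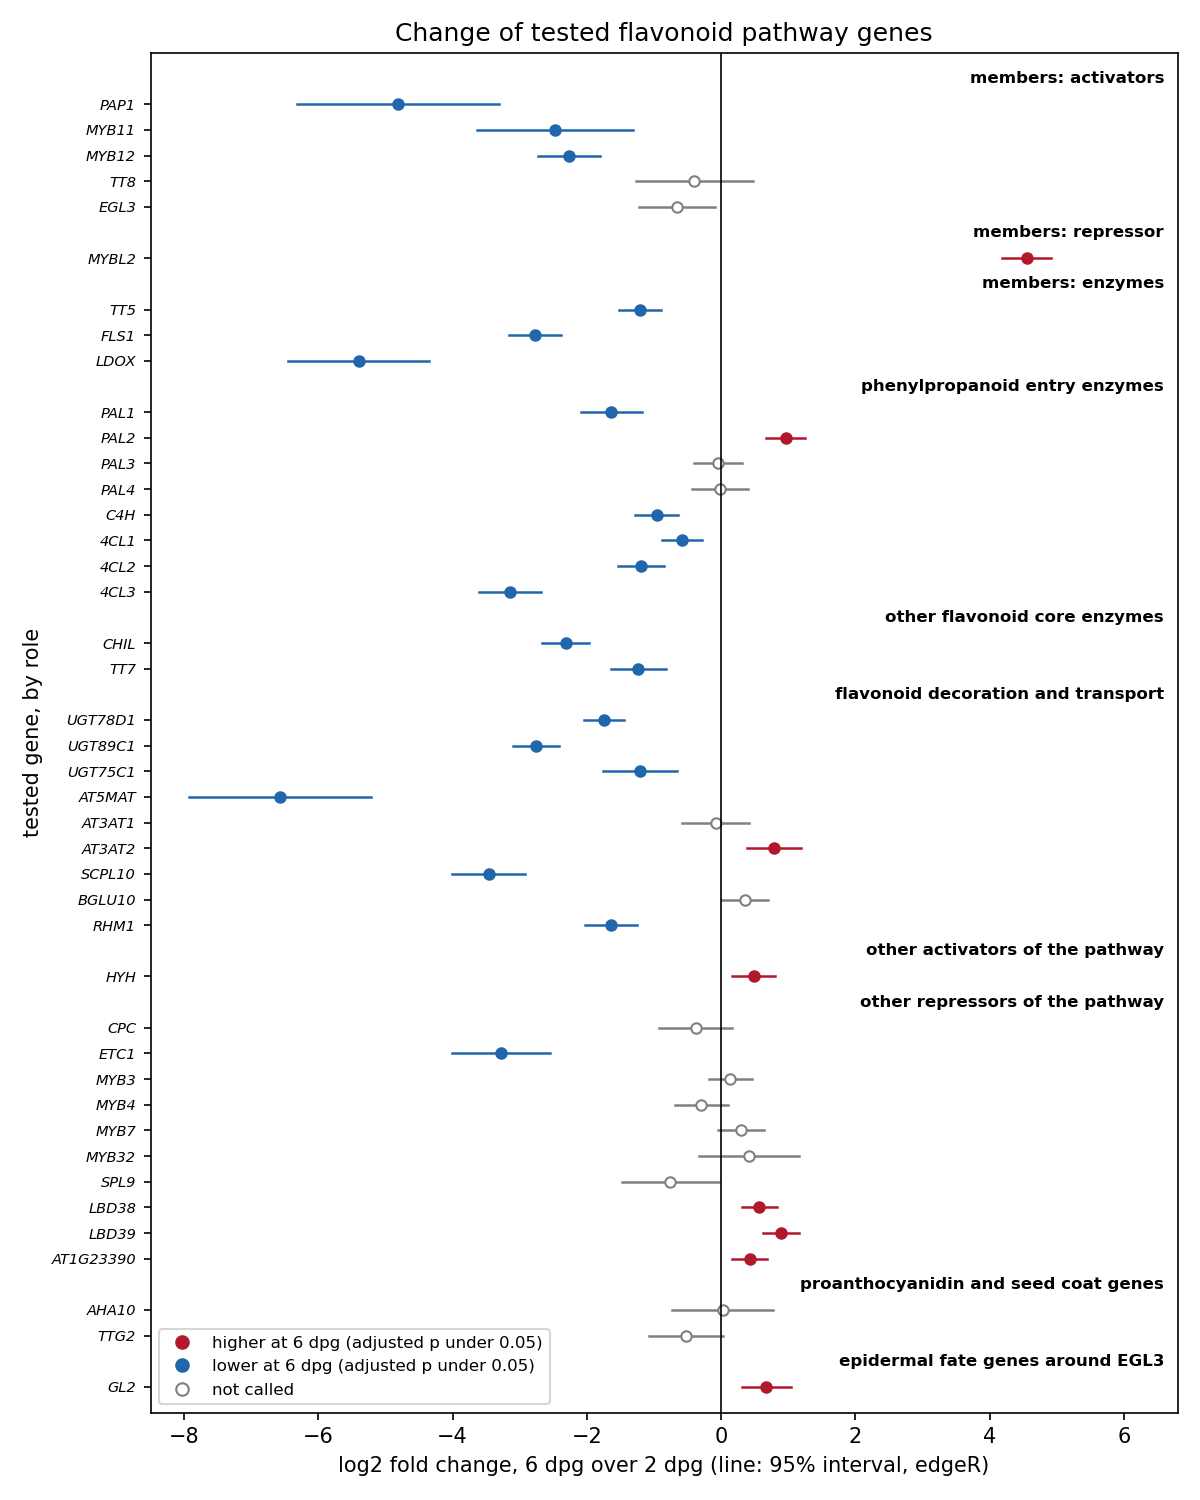
Log2 fold change of 6 over 2 dpg with its 95% interval for the tested genes of the pathway, grouped by role. Filled points were called and open points were not, with AT5MAT, LDOX and PAP1 farthest to the left and MYBL2 at 4.55 alone far to the right.

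Root and leaf marker genes changed as well. Root markers summed to 101 to 124 CPM at 2 dpg and 24.7 to 26.5 CPM at 6 dpg, with 3 of 3 genes lower, and leaf markers to 24052 to 24742 CPM and 15009 to 16189 CPM, with 2 of 3 lower. Of the epidermis markers 0 of 2 were called, at a median log2 fold change of -0.19, with sums of 170 to 183 CPM and 151 to 158 CPM. The 5 seed reserve genes summed to 0.983 and 5.33 CPM in 2 dpg replicates 1 and 2, and to 0.0832 to 0.358 CPM at 6 dpg. The difference between the 2 dpg replicates lay mainly in SESA3 (1 and 58 reads) and OLEO1 (2 and 30 reads). Of 6 genes of the seed coat and its proanthocyanidins in the table, BAN and TT1 had no read in any library and TT12 none at 2 dpg, and the list summed to 4.42 to 4.55 CPM at 2 dpg and 3.95 to 4.04 CPM at 6 dpg. Whether these marker changes reflect shifts in tissue share was not tested, nor was their part in the flavonoid changes. Fold changes also followed gene length, with a median of -0.28 for tested genes of 500 to 1000 bases, the class of MYBL2, PAP1 and TT5, -0.08 for 1000 to 1500 bases, the class of MYB11, MYB12, FLS1 and LDOX, and 0.05 for 1500 to 2500 bases, the class of TT8 and EGL3.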

How the data were processed

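Total RNA went into NEBNext Ultra RNA libraries, per the labels' protocols; the kit does not mark the strand. The submitters' processing notes list DESeq 1.18.0, HTSeq 0.6.1, TopHat2 2.0.12, Bowtie2 2.2.3 and CASAVA 1.8 without saying which step each served. The genome build is one item not given in the sources used here, as is the annotation. For each gene the authors deposited read counts and FPKM of every library, an FPKM mean of each age (not used), and p-values, raw and adjusted. Another 2 columns whose headers name other days were not used. The table ends on chromosome 5 at position 3070933. Coordinates are the authors' own; the span of each of the 10 genes lies within its span on TAIR10.1, the RefSeq assembly used for sequences, and 26407 loci matched it. FPKM equalled count over length and total within 0.01% for 7 of the 10 genes and differed by up to 3.97% for the others.

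Library totals were recovered as the value that 66.7 to 67.8% of genes with more than 200 reads gave within 0.01%. The test of 6 against 2 dpg was made in R 4.3.3 with edgeR 4.0.16 (TMM on recovered totals, a filterByExpr minimum count of 10 that removed 10624 genes, quasi-likelihood F test with no term but age). SE is the absolute log2 fold change over the root of F. Exact intervals of summed counts are conditional binomial, cover counting error only, and ignore replicate spread. Within each age neither library was a copy of the other (chi-square per degree of freedom 16.5 at 2 dpg and 6.01 at 6 dpg). The script was tested on simulated data. Alternatives were DESeq2 1.42.0, its size factors, 2 filters, table sums, a replicate block, scaling on 10 ribosomal protein genes, length-adjusted offsets and leaving out each library. Named genes were the 10, up to 3 called rises and 3 called falls of each other list, genes without reads, and MYB113 and MYB114. Members, lists and tests were chosen with earlier results of these data known.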

Additional observations from a re-analysis of the deposited data

How the results depend on the processing

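Every count of calls, for the 10 flavonoid genes and for the other pathway genes, stayed within 1.5 times its value in all 12 alternatives. The flavonoid genes called numbered 7 or 8, MYBL2 always the 1 higher, and the others called numbered 19 to 23. MYB11 did not pass the filter of a mean count of at least 20. Of 107 values of single flavonoid genes, 101 kept direction and side of the threshold, and the other 6 were EGL3 becoming called. Of 192 values of the other named genes, 5 lost the call (HYH, AT1G23390 and GL2) and none reversed. Scaling on 10 ribosomal protein genes, which had a median of -0.39 themselves, left the flavonoid genes at 1 higher and 6 lower. With the replicate block, 7 were lower and 1 higher, and EGL3 had an adjusted p of 0.0397; it changed no other call among the named genes. Same-numbered libraries did not deviate together (r = -0.026 across 16053 genes). With so few libraries this cannot exclude a pairing, and the labels state none. Where a library was left out, the lone one of its age was assumed to vary like the other age. Depth limits PAP2, MYB11 and the 6 dpg levels of PAP1 and LDOX, which rest on few reads.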

Other observations

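Some genes of epidermal hair and seed coat identity that sit beside this pathway were scarce. A pair of the scarce ones, chosen after their values were seen, had more reads at 6 dpg. Of the seed coat list, TTG2 went the other way, with 139 reads at 2 dpg and 94 at 6 dpg (edgeR adjusted p = 0.0941, not called). AHA10 of that list had 60 reads at 2 dpg and 61 at 6 dpg. MYB5, an R2R3-MYB of trichomes and seed coat that uses the same bHLH partners, had no read at 2 dpg and 8 and 9 reads at 6 dpg, and the 95% exact interval of the ratio of 6 over 2 dpg began at 4.20. It did not pass the filter on low counts, and its adjusted p in the authors' deposited table is 0.0191. GL1, the R2R3-MYB that starts leaf trichomes with EGL3, had 2 and 1 reads at 2 dpg and 6 and 7 reads at 6 dpg, a ratio of 4.41 with a 95% exact interval of 1.21 to 24.1, covering counting error only. Its adjusted p in the authors' deposited table is 0.3545, and edgeR without a filter on low counts did not call it.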
